A study of Mus musculus with 57 samples.

Results

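The genes described here are 10 plasma membrane amino acid transporters, chosen by symbol from the 52853 genes counted in 41 mice: Slc3a2, Slc7a10, Slc7a5, Slc7a11, Slc7a1, Slc7a3, Slc1a4, Slc1a5, Slc38a2 and Slc6a9. Their mRNA was measured by RNA-seq in adipose tissue of male C57BL/6J mice homozygous for the R707W allele of Mfn2, the gene of a mitochondrial outer membrane fusion protein (KI), and in wild type littermates (WT). The KI mice came from 1 CRISPR founder, carry the allele in all tissues, and also carry a silent change beside it that creates a restriction site. From 5 weeks of age the mice ate chow or a high fat diet (HFD, 45% of energy as fat) for 6 months, and tissue was taken after a 6 h fast. Inguinal white adipose tissue (WAT) came from 8 KI and 8 WT mice on HFD and from 6 KI and 7 WT mice on chow. Brown adipose tissue (BAT) came from 6 KI and 6 WT mice on HFD.

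Amino acids cross the plasma membrane through carriers that differ in substrate and in driving force. Slc3a2 encodes the heavy chain CD98, which brings a light chain of the Slc7 family to the cell surface and is linked to it by a disulfide bond. The light chain sets the substrate: large neutral amino acids for LAT1 (Slc7a5), small neutral amino acids such as serine and glycine for Asc-1 (Slc7a10, long known as an adipocyte surface protein), and cystine in exchange for glutamate for xCT (Slc7a11). Slc7a1 and Slc7a3 encode the cationic amino acid transporters CAT1 and CAT3, Slc1a4 and Slc1a5 the neutral amino acid exchangers ASCT1 and ASCT2, Slc38a2 the sodium coupled neutral transporter SNAT2, and Slc6a9 the glycine transporter GlyT1. Several of these genes are textbook targets of ATF4, the transcription factor of the integrated stress response (ISR).

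Counts per mouse summed to between 8042591 and 10522554 in BAT, 8668279 and 11720458 in inguinal WAT on chow, and 17572752 and 25680411 in inguinal WAT on HFD, where each mouse had 2 technical replicate libraries and 1 column of counts. Each tissue and diet was deposited as its own table, so diet and tissue differences cannot be told apart from differences between tables. Levels are given as CPM, the share of a mouse's counts that fell on a gene, scaled to 1e+06 counts and by TMM over all 41 mice. Markers of brown adipocytes (5 of 5 counted, with none at 0) summed to 9282 to 13351 CPM in WT BAT and 10.7 to 21.0 CPM in WT inguinal WAT on HFD. White adipocyte markers (5 of 5) summed to at least 15182 CPM in every mouse. Some inguinal mice stood apart in markers of other cells. Lymphocyte markers were highest of their groups in HFD WT mouse 2, HFD KI mouse 2, chow KI mouse 3 and chow WT mouse 4. They were also raised in HFD WT mouse 6 (179 CPM, group median 9.36). On chow they were also raised in KI mouse 1 (93.9 CPM, group median 4.84) and WT mouse 1 (47.5 CPM, group median 6.22). Chow WT mouse 4 was also highest of its group in macrophage and epithelial markers. Skeletal muscle markers reached 56664 CPM in chow KI mouse 4 (group median 126 CPM) and 3340 CPM in HFD KI mouse 3 (105 CPM). In BAT these markers reached 2636 CPM in WT mouse 2 (group median 18.3 CPM) and 750 CPM in KI mouse 6 (6.34 CPM). In BAT, KI mice 4 and 5 had the highest levels of several transporters, and results in BAT that turn on them are also given without them. In bulk tissue, fewer cells of a type and less RNA per cell cannot be told apart. Mfn2, whose missense allele need not change its mRNA, was not called in any genotype comparison (log2 fold change 0.34 on HFD and 0.37 on chow in inguinal WAT and 0.29 in BAT, edgeR adjusted p = 0.0114, 0.0789 and 0.113), so its level does not check the labels.

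Between KI and WT mice, Slc7a10 fell in all 3 comparisons, and Slc7a5 and Slc7a1 rose in inguinal WAT on HFD. A gene is called here when its edgeR quasi-likelihood adjusted p, over all genes tested, was below 0.01. All 10 transporters passed the filter on low counts and were tested in inguinal WAT on HFD, and 2 were called higher and 1 lower, where 11.5% of all genes tested were called (6.21% higher and 5.24% lower). On chow 9 were tested and 1 was called, lower, where the share over all genes was 3.27% (1.22% lower). In BAT 8 were tested and 1 was called, lower, where the share over all genes was 1.83% (0.475% lower). The BAT count depended on the tool. All 8 transporters tested there had an unadjusted p below 0.05 (24.4% of all genes did), 6 of 8 passed an adjusted p of 0.05 (7.18% of all genes), and DESeq2 called 6 at 0.01 (4.62% of all genes), 4 higher and 2 lower. Without KI mouse 3, 5 or 6, edgeR itself called up to 5, but the share of all genes called in those fits was not worked out. That count can therefore not be set against all genes. The median log2 fold change of the transporters tested was 0.26 on HFD and 0.07 on chow in inguinal WAT and 0.86 in BAT, beside medians of 0.01, 0.00 and -0.01 over all genes. Without KI mice 4 and 5 the median in BAT was 0.60, beside -0.02 over all genes.

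The groups of mice did not overlap for Slc7a5, Slc7a1 and Slc7a10 in inguinal WAT on HFD (4.51% of all genes there did not overlap), for Slc7a10 on chow (4.19%), and for Slc7a5, Slc7a1 and Slc7a10 in BAT (3.68%).

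**Figure D1:**
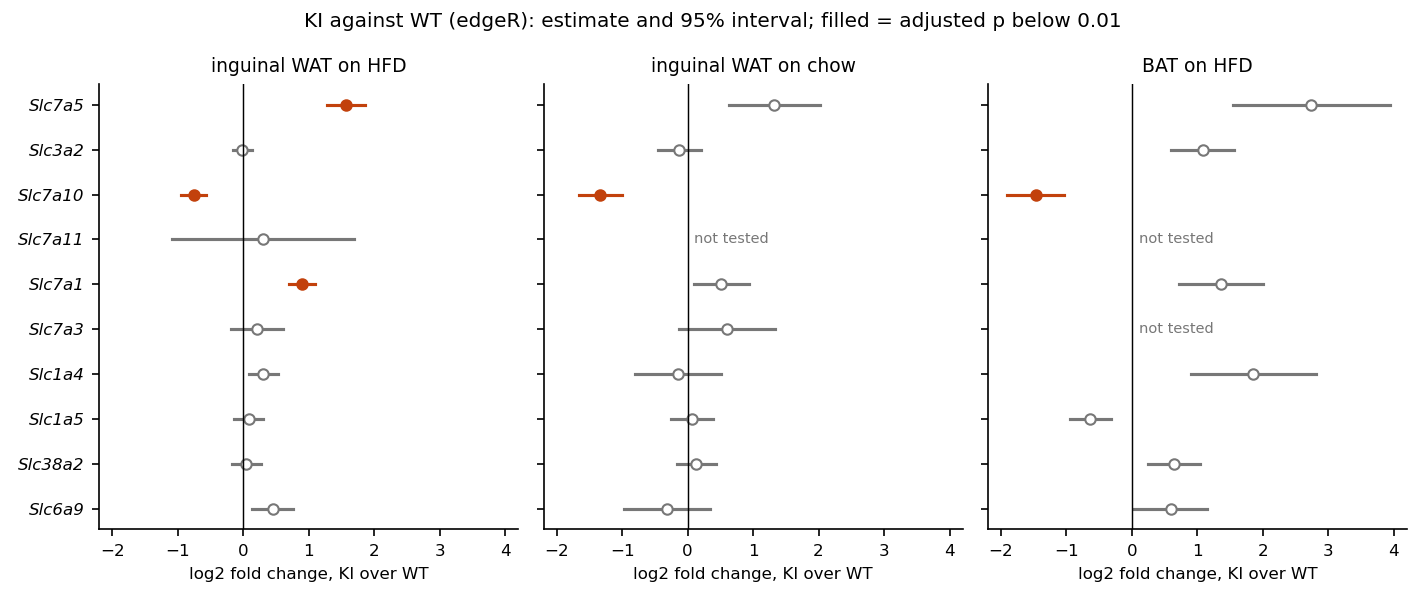
Log2 fold change of KI over WT mice (x axis, edgeR) for each transporter tested in inguinal WAT on HFD (8 against 8 mice), inguinal WAT on chow (6 against 7) and BAT on HFD (6 against 6), with 95% confidence intervals as bars and filled points for an adjusted p below 0.01. Slc7a10 lies below 0 in each comparison, at -0.75, -1.33 and -1.47, and Slc7a5 lies above 0, at 1.57, 1.33 and 2.74.

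Levels of different transporters were compared per kilobase of gene model, as the mean RPKM (scaled CPM per kilobase) of each group. Slc1a5 had the highest level in all 6 groups. Slc7a10 had rank 2 in the 4 inguinal groups, rank 3 in WT BAT and rank 4 in KI BAT. Slc3a2 had rank 3 in the inguinal groups and rank 2 in BAT. Slc7a3 had rank 9 and Slc7a11 rank 10 in every group, with mean RPKM between 0.147 and 0.428 for Slc7a3 and between 0.00535 and 0.0617 for Slc7a11.

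Across the 6 groups, neighbours in the order of a gene's mean CPM were compared by 2-sided exact permutation tests of log2(CPM + 0.5), and 12 of 50 neighbouring pairs differed at an adjusted p below 0.05. Of these, 4 belonged to Slc7a10, 3 to Slc1a4, 3 to Slc1a5, and 1 each to Slc7a5 and Slc3a2. For the other 5 genes no pair of neighbours was shown to differ beyond its spread.

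**Figure D2:**
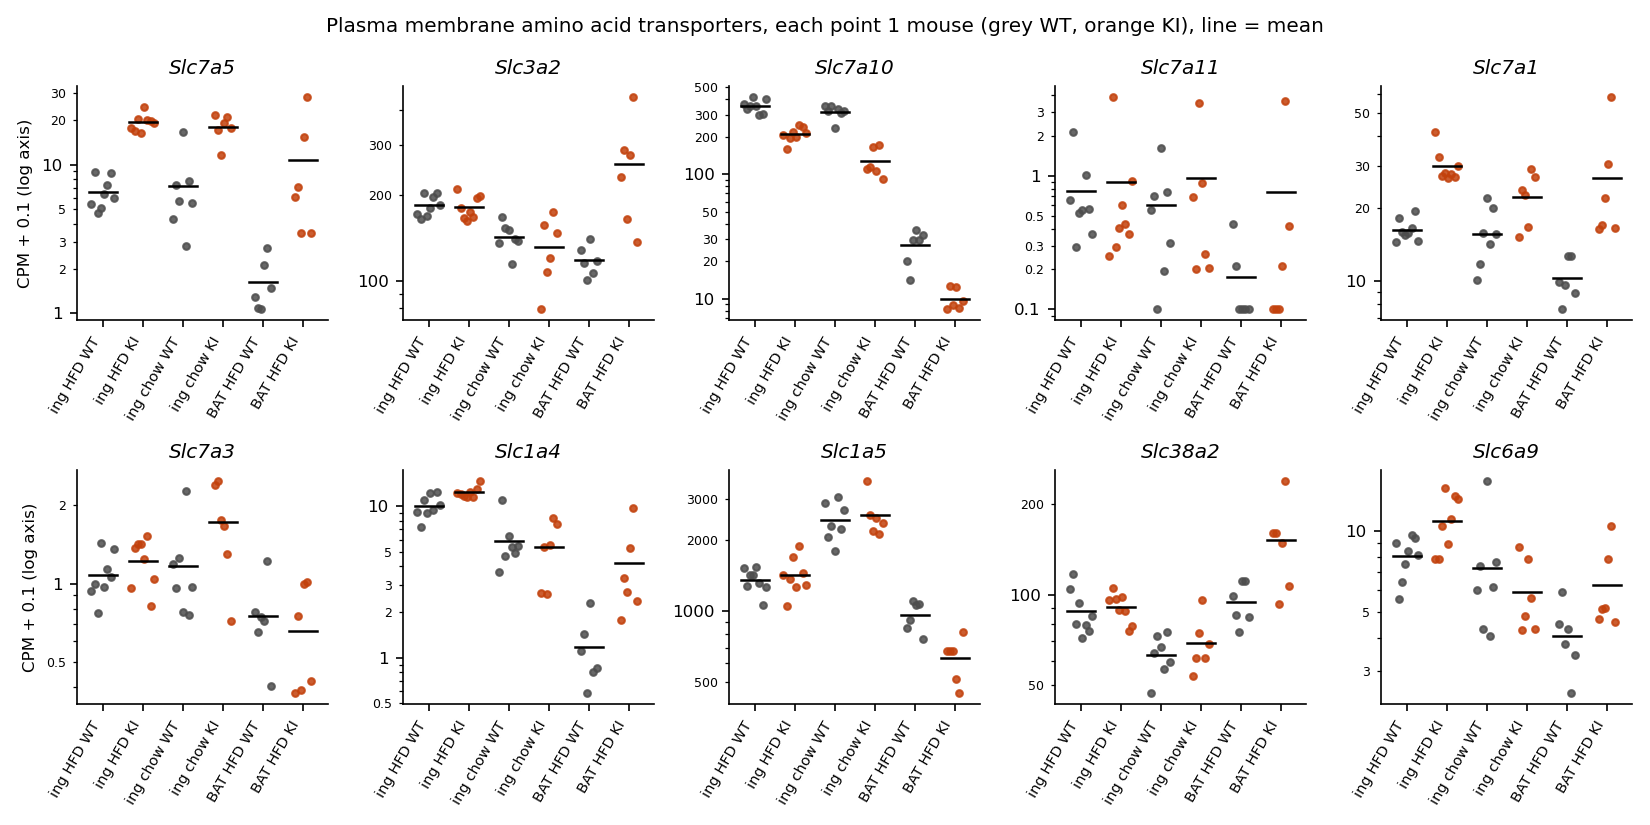
CPM + 0.1 of each of the 10 transporters (y axes, log scale) in every mouse (points, WT grey and KI orange) of the 6 groups (x axes, ing for inguinal WAT), with group means as lines. Slc1a5 spans 447 to 3588 CPM over all mice, Slc7a10 spans 8.08 to 420.1 CPM, and Slc7a11 stays under 4 CPM in all of them.

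Slc7a10 (chr7:35186385-35201114 in GRCm38, plus strand) encodes Asc-1, and its mRNA was lower in KI mice in every tissue and diet. On HFD in inguinal WAT its lowest, median and highest CPM were 301, 356 and 420.1 in WT mice and 158, 209 and 249.7 in KI mice. All 8 KI mice lay below all 8 WT mice, a log2 fold change of -0.75 (SE 0.0905, edgeR adjusted p = 8.56e-06). On chow the WT mice ranged from 236 to 352 CPM with a median of 324, and the KI mice from 91.8 to 172 CPM with a median of 112. No KI mouse reached the lowest WT mouse there either, and the log2 fold change was -1.33 (SE 0.155, edgeR adjusted p = 0.000145). In BAT, where the gene was far less abundant, WT mice ranged from 14.1 to 35.7 CPM with a median of 29.5 and KI mice from 8.08 to 12.5 CPM with a median of 9.09. The log2 fold change was -1.47 (SE 0.205, edgeR adjusted p = 0.000545), again with no overlap. The call held in every fit that left out 1 mouse and under every other alternative in all 3 comparisons.

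The change in Slc7a10 could not be shown to differ between diets (difference of log2 fold changes 0.60, edgeR adjusted p = 0.0531) or between tissues on HFD (-0.68, adjusted p = 0.0435, and -0.72 without BAT KI mice 4 and 5, adjusted p = 0.0534). In the order of its group means, WT mice on HFD and on chow were not shown to differ (adjusted p = 0.264, exact permutation test). Every later step did: chow WT over HFD KI, HFD KI over chow KI, chow KI over BAT WT and BAT WT over BAT KI had exact adjusted p = 0.00777, 0.00999, 0.0135 and 0.0135. Slc7a10 overlaps Lrp3, a low density lipoprotein receptor relative on the opposite strand with 80946 counts over all mice beside 145964 for Slc7a10. Lrp3 was also called lower, at -0.70 on HFD and -0.91 on chow in inguinal WAT and -0.71 in BAT, and the strand setting of the counting is not given in the sources used here, so reads of the pair may be shared. White adipocyte markers stand beside this result, with genotypes that overlapped in inguinal WAT and not in BAT. Their sum was 23431 to 35155 CPM in WT and 20876 to 29969 CPM in KI inguinal WAT on HFD, 20249 to 29724 and 18746 to 26021 CPM on chow, and 17872 to 20510 and 15182 to 17505 CPM in BAT. Of the 5, Adipoq (adiponectin, -0.85) and Lep (leptin, -0.62) were called lower in inguinal WAT on HFD. Brown adipocyte markers summed to 10.7 to 21.0 CPM in WT and 19.9 to 45.7 CPM in KI inguinal WAT on HFD. On chow the sums were 18.1 to 62.5 and 78.1 to 480.7 CPM. Of these 5, 3 were tested on each diet, with positive estimates for 3 on HFD and for 2 on chow. Only Cidea, a lipid droplet protein, was called, higher on both diets (1.55 and 3.03). Of the remaining markers 1 was called, the fibroblast marker Pi16 in BAT (-1.62). The part of these cells in the result for Slc7a10 was not tested.

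Slc7a5 (chr8:121881150-121907694, minus strand) encodes LAT1, the light chain that exchanges leucine and other large neutral amino acids, and was higher in KI inguinal WAT on HFD. WT mice there had 4.60, 6.04 and 8.82 CPM as lowest, median and highest, and KI mice 16.1, 19.2 and 24.2 CPM. The groups were fully separate, with a fold change of 2.97 (log2 1.57, SE 0.136, edgeR adjusted p = 2.04e-07). On chow the WT range was 2.73 to 16.5 CPM with a median of 5.60 and the KI range 11.5 to 21.4 CPM with a median of 18.3. There 5 of 6 KI mice exceeded every WT mouse, and the log2 fold change of 1.33 (SE 0.326, edgeR adjusted p = 0.0219) was not called. DESeq2 (adjusted p = 0.00116) and 1 edgeR fit of all 6 groups (adjusted p = 0.00632) did call it, and over the alternatives that did not leave out a single mouse the adjusted p ran from 0.000408 to 0.0508. WT mouse 4, at 16.5 CPM, was also the highest of its group for macrophage markers (1862 CPM, group median 612, 6 of 6 counted) and epithelial markers (123 CPM, group median 0.377, 4 of 4 counted). Without that mouse the log2 fold change was 1.71 and was called (edgeR adjusted p = 0.000361), and without it and KI mice 3 and 4 it was 1.80 (adjusted p = 0.000408). The part of these markers in the level of Slc7a5 was not tested.

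In BAT the Slc7a5 values were 0.963, 1.27 and 2.66 CPM in WT mice and 3.34, 6.47 and 28.5 CPM in KI mice. No WT mouse reached the lowest KI mouse, but the KI mice spread widely and the log2 fold change of 2.74 (SE 0.557, edgeR adjusted p = 0.0114) missed the threshold. Over the alternatives that kept all mice or dropped KI mice 4 and 5, the adjusted p ran from 1.79e-06 to 0.0394. Without KI mice 4 and 5, the highest at 15.2 and 28.5 CPM, the log2 fold change was 1.64 (edgeR adjusted p = 0.0126). A difference of its change between tissues was not shown (1.22, adjusted p = 0.150, and 0.11 without those mice), nor one between diets (0.26, 95% interval -0.43 to 0.95, adjusted p = 0.759).

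Slc3a2 (chr19:8706882-8723369, minus strand), the heavy chain on which Slc7a5, Slc7a10 and Slc7a11 depend, was not called in inguinal WAT on either diet. On HFD its CPM ran from 166 to 204 in WT mice and from 163 to 210.0 in KI mice, with medians of 183 and 178. The genotypes overlapped, with a log2 fold change of -0.01 (95% interval -0.16 to 0.14, edgeR adjusted p = 0.933). On chow WT mice had 115 to 168 CPM (median 140.3) and KI mice 79.2 to 174 CPM (median 134), a log2 fold change of -0.13 (95% interval -0.46 to 0.20, edgeR adjusted p = 0.653). In BAT WT mice had 101, 116 and 140.4 CPM and KI mice 137, 254 and 445 CPM as lowest, median and highest. There 5 of 6 KI mice exceeded every WT mouse, and the log2 fold change was 1.08 (SE 0.226, edgeR adjusted p = 0.0115), past 0.05 but not called. DESeq2 (adjusted p = 8.51e-05) and 1 edgeR fit of all 6 groups (adjusted p = 1.59e-05) called it, and the adjusted p ran from 1.59e-05 to 0.0312 over the alternatives. Without KI mice 4 and 5 the log2 fold change was 0.76 (edgeR adjusted p = 0.0236).

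The difference of the Slc3a2 genotype effect between BAT and inguinal WAT on HFD was 1.13 on the log2 scale (SE 0.220, edgeR adjusted p = 0.00141). It was the 1 transporter of 10 called in this test, which called 2.82% of all genes. The call held in all 28 fits that left out 1 mouse and without BAT KI mice 4 and 5 together (0.81, adjusted p = 0.00486). No source used here says if 1 animal gave both depots, so mice were taken as independent.

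The balance of heavy chain to light chains was measured within each mouse as the count of Slc3a2 per kilobase over the summed counts per kilobase of its 6 light chains (Slc7a5, Slc7a6, Slc7a7, Slc7a8, Slc7a10 and Slc7a11). In inguinal WAT on HFD this ratio was 0.225, 0.274 and 0.349 in WT mice and 0.335, 0.404 and 0.526 in KI mice as lowest, median and highest. The genotypes overlapped at their edges, and the log2 ratio was 0.57 higher in KI mice (2-sided exact permutation p = 0.000466, adjusted over 3 comparisons 0.0014). On chow the ratio was 0.187 to 0.330 in WT mice (median 0.236) and 0.339 to 0.672 in KI mice (median 0.489), 1.00 higher on the log2 scale with no overlap (exact permutation p = 0.00117, adjusted 0.00175). In BAT it was 0.943 to 1.27 in WT mice (median 1.07) and 1.51 to 5.58 in KI mice (median 3.74), 1.60 higher with no overlap. The exact permutation p of 0.00216 (adjusted 0.00216) is the smallest that 6 against 6 mice allow. Leaving out 1 mouse gave 0.53 to 0.62, 0.91 to 1.10 and 1.44 to 1.82 for these differences, and counting only the 3 light chains among the 10 transporters gave 0.68, 1.10 and 1.83. Without KI mice 4 and 5 the BAT ratio had a KI median of 3.12 and was 1.35 higher on the log2 scale, again with no overlap (exact permutation p = 0.00476, adjusted 0.00476).

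Slc7a10 made up most of the light chain counts per kilobase in inguinal WAT, while in BAT it stood beside Slc7a6, whose median share was 43.4% in WT and 44.2% in KI mice. Its median share was 90.0% in WT and 80.3% in KI mice on HFD, 87.7% and 77.7% on chow, and 45.3% and 22.7% in BAT. The median share of Slc7a5 was 0.825% and 3.98% on HFD, 0.835% and 7.05% on chow, and 1.10% and 9.19% in BAT, where the KI value was 6.68% without mice 4 and 5. In inguinal WAT on HFD the shares of both genes were separate between genotypes, while on chow 1 KI mouse held 87.3% Slc7a10, inside the WT range of 86.5% to 91.6%. The median share of Slc7a8 was 4.93% in WT and 10.4% in KI mice on HFD, also with no overlap. For Slc7a8 it was 4.47% and 8.39% on chow and 3.801% and 10.2% in BAT, with overlapping genotypes. The median share of Slc7a7 in BAT was 6.66% in WT and 10.4% in KI mice, with no overlap. In inguinal WAT the genotypes overlapped for Slc7a7 on both diets. In inguinal WAT, where Slc7a10 held most of the light chain counts and Slc3a2 was not called, the ratio largely repeats the fall of Slc7a10. Its p-values there are not separate evidence. In BAT the ratio rests on the same counts as the estimates for Slc3a2 (1.08, not called) and Slc7a10 (-1.47). Its p-values in BAT are not separate evidence either. The light chains did not move together on HFD, since Slc7a10 fell and Slc7a5 rose. Reads that Slc7a10 may share with Lrp3 also enter the ratio. The ratio shows unequal change of heavy and summed light chain mRNA and says nothing about the proteins at the membrane.

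**Figure D3:**
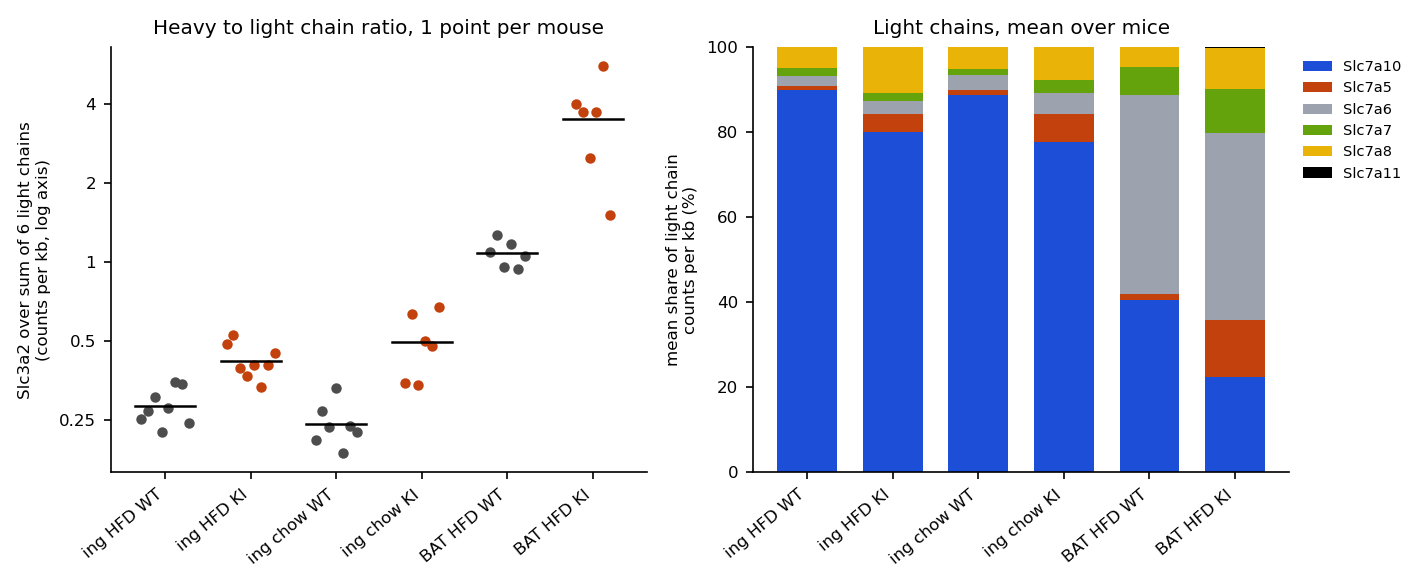
Ratio of Slc3a2 counts per kilobase to the summed counts per kilobase of its 6 light chains in every mouse (left, y axis on a log scale, group means as lines), and the mean share of each light chain in their summed counts per kilobase (right, stacked bars, %), by group. The KI medians of the ratio, 0.404, 0.489 and 3.74, lie above the WT medians of 0.274, 0.236 and 1.07.

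Slc7a11 (chr3:49892526-50443614, minus strand), the cystine light chain xCT, was close to the detection limit, with 435 counts over all 41 mice. The stretch of its promoter shown here holds an ATF4 composite motif (TGATGNAA, in capitals, searched on both strands) on each strand, and is set beside that of Slc1a4, the 1 other transporter with a match, to show the letters that the pair share. Both are RefSeq sequence of GRCm38.p6 on the minus strand, at chr3:50443651-50443680, 67 to 38 bases before the gene start, and at chr11:20332699-20332728, from 15 bases before the start to 14 past it.
Slc7a11: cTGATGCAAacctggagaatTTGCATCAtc
Slc1a4: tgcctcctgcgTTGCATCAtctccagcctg
Promoter windows, from 250 bases before to 50 after a gene start, were found for 7 of the 10 transporters. None was found for Slc7a5, Slc7a3 or Slc1a5, which could not be searched. Of all 32851 windows, 3.97% hold this motif. The antioxidant response element (TGACNNNGC, both strands, the site of NRF2) was in 12.4% of all windows and matched in windows of Slc6a9, Slc7a1 and Slc38a2. A match of letters is a description and not a bound site.

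Counts of Slc7a11 in inguinal WAT on HFD were 4 to 50 in WT mice (median 11) and 3 to 111 in KI mice (median 8.5). The genotypes overlapped, and the log2 fold change of 0.31 (95% interval -1.08 to 1.70, edgeR adjusted p = 0.802) rested on KI mouse 2, without which it was -0.84. On chow, where the gene was too low to be tested across all genes, counts were 0 to 20 in WT and 1 to 39 in KI mice (mean difference of log2(CPM + 0.5) 0.20, exact permutation p = 0.687). In BAT 4 of 6 WT mice had 0 counts and the others at most 2, and KI mice had 0 to 23 counts (0.50, exact permutation p = 0.5). A genotype difference was not detectable at this depth. In each of the 4 inguinal groups the mouse with the most Slc7a11 was also the mouse with the highest sum of 5 lymphocyte markers. These were HFD KI mouse 2 (111 counts, 483 CPM of lymphocyte markers, group median 6.16), HFD WT mouse 2 (50 counts, 344 CPM, median 9.36), chow KI mouse 3 (39 counts, 312 CPM, median 4.84) and chow WT mouse 4 (20 counts, 78.1 CPM, median 6.22). Of the other mice raised in these markers, HFD WT mouse 6 (179 CPM) had 24 counts of Slc7a11. Chow KI mouse 1 (93.9 CPM) had 6 counts, and chow WT mouse 1 (47.5 CPM) had 5, the median of its group. BAT KI mouse 5 did not follow the pattern either, with 23 counts of Slc7a11 and 5.33 CPM of lymphocyte markers, inside the range of its group. All 5 lymphocyte markers had counts in each group, and their part in the level of Slc7a11 was not tested.

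**Figure D4:**
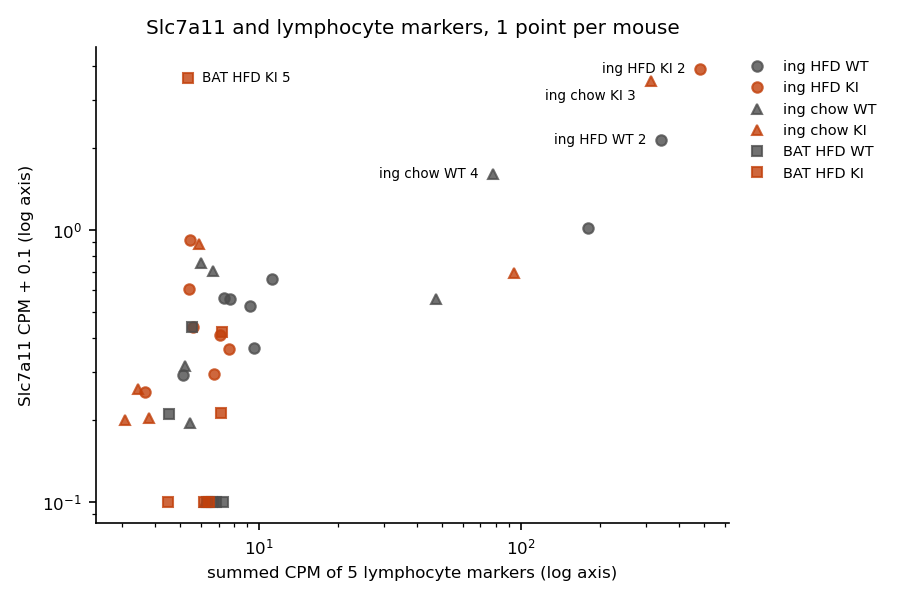
CPM + 0.1 of Slc7a11 (y axis, log scale) against the summed CPM of 5 lymphocyte markers (x axis, log scale) in each of the 41 mice (points, WT grey and KI orange, 1 shape for each tissue and diet). The 3 inguinal mice with 312 CPM or more of lymphocyte markers hold 2.03 to 3.81 CPM of Slc7a11. BAT KI mouse 5 holds 3.50 CPM at 5.33 CPM of those markers, and chow KI mouse 1 holds 0.596 CPM at 93.9 CPM.

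Of the cationic amino acid transporters, Slc7a1 (chr5:148327410-148399904, minus strand), which carries arginine, lysine and ornithine, was higher in KI inguinal WAT on HFD. WT mice had 14.4, 15.8 and 19.4 CPM and KI mice 26.7, 27.9 and 41.4 CPM as lowest, median and highest. The groups did not overlap, at a log2 fold change of 0.90 (SE 0.0949, edgeR adjusted p = 2.06e-06), and the call held under every alternative. On chow WT mice had 10.01 to 21.9 CPM (median 15.5) and KI mice 15.1 to 29.0 CPM (median 23.1), a log2 fold change of 0.52 (SE 0.196, edgeR adjusted p = 0.115) that was not called, with 4 of 6 KI mice above every WT mouse. In BAT WT mice had 7.49 to 12.6 CPM (median 9.62) and KI mice 16.3 to 58.3 CPM (median 19.5). All 6 KI mice lay above all WT mice, and the log2 fold change was 1.36 (SE 0.299, edgeR adjusted p = 0.0153, from 5.81e-05 to 0.0482 over the alternatives). Without KI mice 4 and 5, at 30.6 and 58.3 CPM, it was 0.79 (adjusted p = 0.0130).

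Slc7a3 (chrX:101079210-101086020, minus strand), the related carrier CAT3, was rare, with 663 counts over all mice. Its CPM in inguinal WAT ran from 0.671 to 1.33 in WT and 0.721 to 1.42 in KI mice on HFD, and from 0.657 to 2.17 and 0.617 to 2.38 on chow. The genotypes overlapped, with log2 fold changes of 0.21 (edgeR adjusted p = 0.495) and 0.60 (adjusted p = 0.307). In BAT every mouse had 2 to 8 counts, too few for the test across genes (mean difference of log2(CPM + 0.5) -0.14, exact permutation p = 0.496).

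Slc1a4 (chr11:20302180-20332713, minus strand), the exchanger ASCT1 for serine, alanine and threonine, was not called between genotypes in any tissue. On HFD in inguinal WAT, WT mice had 7.11, 9.66 and 12.3 CPM and KI mice 11.4, 11.9 and 14.6 CPM, a log2 fold change of 0.31 (SE 0.104, edgeR adjusted p = 0.0434). On chow the ranges were 3.55 to 10.8 CPM in WT mice and 2.53 to 8.19 CPM in KI mice, with medians of 5.27 and 5.32 (log2 fold change -0.15, adjusted p = 0.820). In BAT WT mice had 0.481, 0.886 and 2.17 CPM and KI mice 1.67, 2.92 and 9.59 CPM. There 5 of 6 KI mice exceeded every WT mouse, at a log2 fold change of 1.86 (SE 0.449, edgeR adjusted p = 0.0223, from 0.000373 to 0.0876 over the alternatives), and without KI mice 4 and 5 it was 1.11 (adjusted p = 0.0876). The difference of its change between tissues, 1.60, was not called (edgeR adjusted p = 0.0123), and was 0.85 without those mice (adjusted p = 0.0919).

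Slc1a5 (chr7:16781340-16798274, plus strand) encodes ASCT2, the exchanger of glutamine and other neutral amino acids, and was the most abundant of the 10 per kilobase. In inguinal WAT on HFD it ranged from 1065 to 1541 CPM in WT mice (median 1372) and from 1056 to 1896 CPM in KI mice (median 1391). On chow it ranged from 1799.8 to 3053 CPM in WT mice (median 2307) and from 2126 to 3588 CPM in KI mice (median 2429.6). Genotypes overlapped on both diets, with log2 fold changes of 0.08 (95% interval -0.15 to 0.31) and 0.07 (95% interval -0.26 to 0.40). In BAT its estimate was negative, as for Slc7a10 alone among the other 7 tested. WT mice had 761, 989 and 1105 CPM and KI mice 447, 677 and 816 CPM, and 5 of 6 KI mice lay below every WT mouse. The log2 fold change of -0.64 (SE 0.149, edgeR adjusted p = 0.0184, from 0.00122 to 0.0395 over the alternatives) was not called, nor was its difference from inguinal WAT (-0.68, adjusted p = 0.0204). Without KI mice 4 and 5 these were -0.47 and -0.52.

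Slc38a2 (chr15:96687392-96699730, minus strand), the sodium coupled transporter SNAT2, whose own expression rises in cultured cells starved of amino acids, was not called between genotypes. Medians in WT and KI mice were 82.2 and 92.2 CPM in inguinal WAT on HFD and 63.9 and 64.9 CPM on chow, with overlapping ranges. In BAT WT mice ranged from 75.3 to 111 CPM (median 92.3) and KI mice from 93.2 to 239 CPM (median 154). There 4 of 6 KI mice exceeded every WT mouse (log2 fold change 0.64, SE 0.189, edgeR adjusted p = 0.0514, from 0.00356 to 0.124 over the alternatives). One edgeR fit of all 6 groups called it (adjusted p = 0.00356) and DESeq2 did not (adjusted p = 0.0166), and without KI mice 4 and 5 the estimate was 0.43 (edgeR adjusted p = 0.124).

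Slc6a9 (chr4:117834506-117875198, plus strand), the glycine transporter GlyT1, was likewise not called between genotypes. WT inguinal WAT on HFD had 5.49 to 9.52 CPM (median 8.19) and that of KI mice 7.73 to 14.4 CPM (median 10.7), a log2 fold change of 0.45 (SE 0.148, edgeR adjusted p = 0.0373). Medians were 6.10 and 5.13 CPM on chow and 3.94 and 5.05 CPM in BAT, with overlapping ranges and log2 fold changes of -0.31 and 0.59 (edgeR adjusted p = 0.573 and 0.179), the latter 0.22 without BAT KI mice 4 and 5. The gene overlaps B4galt2, Ccdc24 and Gm17114, which hold 10619 counts together beside 5161 for Slc6a9. Neither B4galt2 nor Ccdc24 was called, and Gm17114, with 143 counts over all mice, was not looked up.

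The spread among KI mice in BAT was shared by several transporters. Relative to the WT mean, KI mouse 5 had 18.6 times the Slc7a5, 8.92 times the Slc1a4, 5.76 times the Slc7a1, 3.77 times the Slc3a2, 2.61 times the Slc6a9 and 2.54 times the Slc38a2 CPM, the highest of the KI mice for each. KI mouse 6 had 2.20, 2.09, 1.63, 1.16, 1.13 and 1.13 times the WT mean of the same genes. Slc1a5 was lowest in mouse 5, at 0.465 times the WT mean, and highest in mouse 6, at 0.849 times. Slc7a10 did not order the mice in this way, lying between 0.301 and 0.464 times the WT mean in all 6. Beside these values, the brown adipocyte markers summed to 10457 CPM in KI mouse 4 and 12844 CPM in mouse 5 against 12452 to 15969 CPM in the other 4, and the Schwann cell markers (3 of 3) to 102 CPM in mouse 4 and 5.48 CPM in mouse 5 against 9.55 to 18.4 CPM. Mouse 4 also lay outside the other 4 KI mice in endothelial (1492 CPM against 985 to 1315 CPM), macrophage (254 against 144 to 241 CPM), erythroid (1079 against 1218 to 3233 CPM) and white adipocyte markers (17505 against 15341 to 17404 CPM), and mouse 5 in white adipocyte markers (15182 CPM). Skeletal muscle markers summed to 750 CPM in KI mouse 6 (group median 6.34 CPM), 147 CPM in mouse 4 and 7.31 CPM in mouse 5. Among WT mice they reached 2636 CPM in mouse 2 (group median 18.3 CPM). The part of these markers in the spread was not tested.

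**Figure D5:**
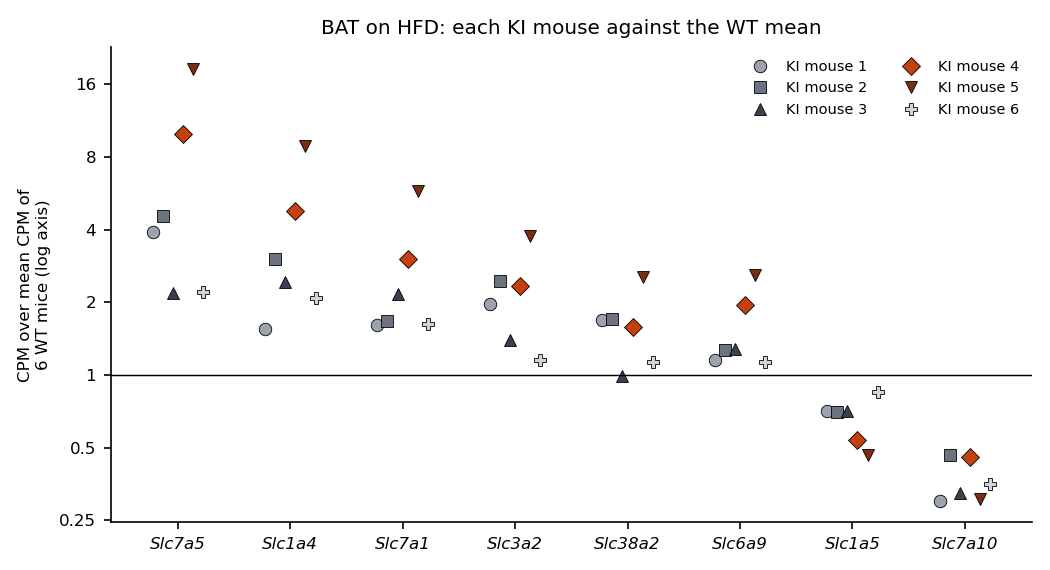
CPM of each of 8 transporters in the 6 KI mice of BAT, divided by the WT mean (y axis, log scale), 1 symbol for each mouse and a line at 1. Mouse 5 is highest for the 6 genes from Slc7a5 to Slc6a9 and lowest for Slc1a5, while Slc7a10 lies between 0.301 and 0.464 in every mouse.

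Diet was compared within inguinal WAT, where table and diet cannot be told apart. In WT mice 3 of 10 transporters were called (28.3% of all genes were) and in KI mice 5 of 10 (30.7% of all genes). Leaving out 1 mouse gave 2 to 4 and 4 to 7, with the share of all genes not worked out for those fits. On HFD, Slc1a5 was lower in both genotypes, by log2 fold changes of -0.87 in WT mice (SE 0.126, edgeR adjusted p = 2.78e-06) and -0.83 in KI mice (SE 0.131, adjusted p = 7.53e-06). Slc1a4 was higher in both, at 0.75 in WT (SE 0.213, edgeR adjusted p = 0.00544) and 1.22 in KI mice (SE 0.227, adjusted p = 7.14e-05). Slc38a2 was called higher in WT mice (0.46, edgeR adjusted p = 0.00269), and Slc3a2 (0.48, adjusted p = 0.00172), Slc6a9 (0.89, adjusted p = 0.00345) and Slc7a10 (0.73, adjusted p = 3.17e-05) in KI mice. The Slc6a9 call was lost without chow KI mouse 6, and that of Slc1a4 in WT mice without chow WT mouse 1, 3 or 6 or HFD WT mouse 7. No transporter was called for a difference of the genotype effect between diets by edgeR (0.845% of all genes) or DESeq2 (2.36%), and 2 of 10 had an unadjusted p below 0.05 (17.1% of all genes).

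Between tissues on HFD, BAT differed from inguinal WAT in 7 of 10 transporters in WT mice, all lower in BAT (55.9% of all genes were called), and in 7 of 10 in KI mice, 5 lower and 2 higher (59.1%). Slc7a10 was the most different, at -3.73 in WT (SE 0.165, edgeR adjusted p = 2.01e-18) and -4.42 in KI mice (SE 0.175, adjusted p = 1.14e-19). Slc1a4 was lower in BAT by -3.19 in WT and -1.59 in KI mice, Slc1a5 by -0.50 and -1.18, and Slc6a9 by -0.99 and -0.81, each called by edgeR. Slc3a2 was lower in BAT of WT mice (-0.65, edgeR adjusted p = 0.00068) and higher in BAT of KI mice (0.49, adjusted p = 0.0064), and the KI call was lost in 7 of 28 fits that left out 1 mouse (BAT KI mouse 2, 4 or 5 or HFD KI mouse 3, 4, 5 or 6), at 0.26 to 0.61. Slc7a5 (-2.08) and Slc7a1 (-0.69) were called lower in WT mice, and in KI mice Slc7a3 (-1.002) was called lower and Slc38a2 (0.72) higher. The Slc7a3 call was lost without BAT KI mouse 1, 3 or 6, and the Slc7a1 call in WT mice without BAT WT mouse 1, 2, 3 or 6 or HFD WT mouse 2 or 7. Without BAT KI mice 4 and 5, 8 transporters were called in KI mice, 7 lower and 1 higher (54.7% of all genes were called). Slc3a2 was no longer called (0.16, edgeR adjusted p = 0.290). Slc7a5 (-1.98, edgeR adjusted p = 3.62e-08) and Slc7a1 (-0.76, adjusted p = 1.73e-05) were called lower. Slc1a4, Slc7a3 and Slc38a2 stood at -2.34, -1.57 and 0.50.

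Of 33 other plasma membrane amino acid transporters, 19 were tested in inguinal WAT on HFD, where 3 were called higher and 4 lower, at a median log2 fold change of -0.22 beside 0.01 over all genes, of which 11.5% were called. Slc36a2 (-1.66, edgeR adjusted p = 1.68e-08), a proton coupled carrier of glycine and proline known as a surface marker of brown adipocytes, and Slc6a6 (-1.21, adjusted p = 0.00113), the taurine transporter, fell. Slc7a7 (-0.59, edgeR adjusted p = 0.00295), another light chain of Slc3a2, fell, and Slc1a1 (1.06, adjusted p = 0.00162), a carrier of glutamate and cysteine, rose. On chow none of the 18 tested was called by edgeR, and none by DESeq2, which called 3.27% and 6.95% of all genes, while 4 had an unadjusted p below 0.05 (24.5% of all genes). In BAT none of 18 was called by edgeR (1.83% of all genes were) and 1 by DESeq2 (4.62%), and 6 had an unadjusted p below 0.05 (24.4%).

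Genes of cystine and glutathione metabolism, where the product of Slc7a11 delivers its cargo, had median log2 fold changes of 0.21 on HFD and 0.27 on chow in inguinal WAT and 0.20 in BAT beside 0.01, 0.00 and -0.01 over all genes. On HFD in inguinal WAT 2 of 11 tested were higher and 1 lower where 11.5% of all genes were called, namely Gclc (0.39, edgeR adjusted p = 0.0056), the catalytic subunit of the first step of glutathione synthesis, Chac1 (0.78, adjusted p = 0.00662), which degrades glutathione, and Ggt5 (-0.93, adjusted p = 1.3e-06), which cleaves extracellular glutathione conjugates. On chow 3 were higher (3.27% of all genes were called), Chac1 (2.19, edgeR adjusted p = 8.95e-05), Gpx4 (0.93, adjusted p = 0.00331), a lipid peroxidase that uses glutathione, and Gss (0.54, adjusted p = 0.00569), glutathione synthetase. In BAT 2 of 10 tested were higher (1.83% of all genes were called), Gss (0.81, edgeR adjusted p = 0.000514) and Txnrd1 (0.54, adjusted p = 0.0071), a thioredoxin reductase.

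Regulators of the ISR and of the NRF2 response were listed because both act on transporters of this kind. Of 13, edgeR called 5 higher on HFD and 3 on chow in inguinal WAT and 3 in BAT, and none lower, where 6.21%, 2.06% and 1.36% of all genes were called higher. Atf5 (2.55, 2.08 and 1.93 on the log2 scale), Ddit3 (1.37, 1.23 and 2.15) and Trib3 (3.18, 3.65 and 3.54), all induced in the ISR, were called in each comparison. Atf4 (1.06) and Cebpg (0.45) were the other 2 called on HFD, and the list's medians were 0.13, 0.32 and 0.06 in the same order.

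Likeness of pattern was measured as Pearson's r over the 41 mice of log2 CPM centred on the mean of each table, among 16201 genes, and is a description, since the mice share genotype differences, tables and depth. The gene most like Slc7a10 was Rbp4, retinol binding protein (r = 0.93), with the overlapping Lrp3 next (0.86). The gene most like Slc7a5 was Xpot, the export receptor of tRNA (0.90), and that most like Slc7a1 was Slc7a5 itself (0.88). Slc3a2 and Slc1a4 were each most like the other (0.85). Of the remaining genes, Slc6a9 was nearest to the overlapping Ccdc24 (0.85), with which it may share reads, which was not tested. Slc38a2 was nearest to Zbtb18 (0.84), Slc1a5 to A530016L24Rik (0.76), Slc7a11 to Slc6a19 (0.76) and Slc7a3 to Nr1d2 (0.61).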

How the data were processed

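RNA from adipose tissue of 41 mice was sequenced in 57 libraries. Per the labels, cutadapt trimming, STAR alignment (GRCm38) and SAMtools sorting came first, and the authors deposited raw counts per gene from featureCounts in 3 tables, with gene lengths. Versions, annotation and strand setting, and how the technical replicates of inguinal WAT on HFD were combined, are not given in the sources used here. Of 54838 entries, 1884 without counts per mouse and duplicated symbols were left out, which left 52853 genes.

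Counts were fitted with edgeR 4.0.16 (R 4.3.3) in each table: TMM, filterByExpr, robust quasi-likelihood test, Benjamini-Hochberg adjustment over all genes tested, called below 0.01. Interactions, diet and tissue came from fits of 4 groups. Standard errors were derived from the fold change and F. DESeq2 1.42.0, a fit of all 6 groups, other normalisation, filters and thresholds, a replicate block and leaving out mice were alternatives. Leaving out BAT KI mice 4 and 5, or some of the inguinal mice that stood apart in markers, was chosen after seeing the data. CPM and RPKM used TMM factors over all 41 mice, with a pseudocount of 0.5 in log2 values. Exact permutation tests went through all splits of the mice with numpy 2.4.6 and covered single values. The scripts were tested on simulated data.

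The 10 transporters and all lists were chosen with earlier results of these data known. Named with values were the 10, Mfn2, up to 4 called genes with the smallest p in each list and comparison (Cebpg was added after its values were seen), the gene most like each transporter, overlapping genes, and markers called.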

Additional observations from a re-analysis of the deposited data

Results flagged for a closer look

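Single mice stood far from the rest of their group in 13 of 60 combinations of transporter and group. The cut-off flags about 1 in 20, or 3, only for independent and normally spread values. The combinations reuse the same mice, and CPM of Slc7a11 lie near 0, so an excess over chance was not shown. Slc7a11 was highest, by a gap large beside the range of the group, in inguinal HFD WT mouse 2 (2.03 CPM), inguinal HFD KI mouse 2 (3.81 CPM), inguinal chow KI mouse 3 (3.41 CPM), BAT WT mouse 1 (0.337 CPM, which is 2 counts) and BAT KI mouse 5 (3.50 CPM). Inguinal chow WT mouse 4 was highest for Slc7a5 (16.5 CPM) and Slc6a9 (15.3 CPM) and lowest for Slc7a10 (236 CPM). Slc7a1 was highest in inguinal HFD KI mouse 1 (41.4 CPM) and BAT KI mouse 5 (58.3 CPM). On chow, Slc7a3 was highest in WT mouse 5 (2.17 CPM), Slc1a4 in WT mouse 2 (10.8 CPM) and Slc1a5 in KI mouse 1 (3588 CPM).

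The effect of genotype on Slc3a2 differed between BAT and inguinal WAT on HFD, by 1.13 on the log2 scale in the edgeR interaction test.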

How the results depend on the processing

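Slc7a10 in all 3 genotype comparisons, and Slc7a5 and Slc7a1 in inguinal WAT on HFD, were called under every alternative run. Counts of the 10 transporters called moved as follows. At an adjusted p of 0.05, 5 were called in inguinal WAT on HFD (20.9% of all genes were) and 2 on chow (8.63%). In BAT 6 were called at 0.05 (7.18%), and 4 for the tissue difference of the genotype effect (7.44%). At 0.001 the tissue difference gave 0 (0.947%), and the diet comparisons 1 in WT (17.8%) and 3 in KI mice (19.7%). DESeq2 gave 2 on chow (6.95%), 6 in BAT (4.62%) and 3 for the tissue difference (5.04%). One fit of all 6 groups gave 2 on chow (6.72%) and 7 in BAT (5.15%), and no filter gave 2 in BAT (1.21%). A minimum of 10 counts gave 4 between tissues in KI mice (66.2%). Leaving out chow WT mouse 4 and KI mice 3 and 4 gave 2 on chow (2.57%). For the other transporters, HFD gave 1 at 0.001 (5.34%) and 4 without the filter (5.32%). On chow 1 of them was called at 0.05 (8.63%), 2 in the fit of 6 groups (6.72%) and 1 without those 3 mice (2.57%). In BAT 4 of them were called at 0.05 (7.18%) and 1 with DESeq2 (4.62%).

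For fits that left out 1 mouse the share of all genes called was not worked out. Leaving out 1 mouse gave 1 to 5 transporters called in BAT (more than 1 without KI mouse 3, 5 or 6) and 1 to 2 on chow (WT mouse 4). It gave 1 to 3 for the tissue difference, and of the other transporters 0 to 1 in BAT and 4 to 8 on HFD. It turned the sign of values that were not called: Slc7a11 on HFD ran from -0.84 to 0.80, Slc3a2 on HFD from -0.040 to 0.011, on chow Slc1a5 from -0.056 to 0.12, Slc1a4 from -0.32 to 0.074 and Slc6a9 from -0.46 to 0.0030, and the diet difference of Slc7a5 from -0.13 to 0.40. Slc7a11 on HFD was -0.82 with DESeq2, and without the 3 chow mice Slc1a4 was 0.037 and Slc38a2 -0.036. Among diet and tissue calls, diet calls held in 25 of 29 such fits for Slc1a4 in WT mice and in 28 of 29 for Slc6a9 in KI mice, and tissue calls in 22 of 28 for Slc7a1 in WT mice and in 25 and 21 of 28 for Slc7a3 and Slc3a2 in KI mice. The cause was not tested.

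Replicate numbers were not shown to pair the mice. Between WT and KI mice of the same number, correlations of deviations ran from -0.15 to 0.31 in BAT, -0.22 to 0.19 on chow and -0.26 to 0.69 on HFD. The KI mouse most like a WT mouse had its number in 2 of 6, 1 of 6 and 1 of 8 cases. Such correlations cannot show that the numbers do not mark pairs. With the number as a replicate block 4 transporters were called in BAT (2.74% of all genes), 3 in inguinal WAT on HFD (9.38%) and 1 on chow (0.813%). Slc7a11 on HFD was then -0.12.

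Depth limits Slc7a11 and Slc7a3, which had few counts per mouse.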
